A study of Malus domestica with 6 samples.

Results

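The genes described here are the short-chain dehydrogenase/reductase genes of apple exocarp, the outer skin of the fruit (Malus domestica). They were selected by their annotation: every gene model whose protein domain entry held the Pfam family PF00106. The rule gave 7 of the 1261 gene models in the deposited table. The study sequenced RNA of exocarp from 3 fully russeted varieties, St Edmund Pippin, Reinette Parmentier and Patte de Loup, whose skin is rough and corky, and from 3 fully waxy varieties, AG94, AF42 and Gala, whose skin is smooth and wax-covered. All fruit came from the orchards of a single research centre and was sampled in the same month. With 1 library from each variety, n is 3 per phenotype, and a variety is never replicated. The SD below measures the spread between varieties. The p-values weigh the difference between phenotypes against variation between varieties, estimated with help from all tested genes. Skin type cannot be told apart from whatever else distinguishes these sets of varieties.

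Short-chain dehydrogenases/reductases are a large enzyme superfamily. Its members bind NAD or NADP through a Rossmann fold and reduce a keto group to an alcohol, or run the reverse reaction, on substrates as different as acyl chains, sphingoid bases, chlorophylls, terpenoids and hormones. In fruit skin, acyl chains made in the plastid are the raw material of both the wax and cutin of a smooth cuticle and the suberin of cork. Gene models are named by their table identifier and by their Arabidopsis match, and roles are those known in Arabidopsis.

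All 7 members carried the gene ontology term for oxidoreductase activity, as did 66 of all listed genes. The 7 members matched 6 Arabidopsis loci, since 2 of them, MDP0000367954 and MDP0000171200, matched the same one. The description of 6 members went no further than an NAD(P)-binding Rossmann-fold protein, a description shared by 13 listed genes, and 3 members had an enzyme number. In 6 members 96.4% or more of the reads were unique to the gene model. The exception was IBR1 (MDP0000184463), with 65.8%, so its values are uncertain to the extent that reads were shared with another gene.

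Of the 7 genes, 6 were lower and 1 was higher in every russeted variety than in any waxy variety. Passing the threshold were 1 fall, of a plastid fatty acid synthesis gene (MDP0000367954), and 1 rise, of a gene matched to AT3G61220 (MDP0000167727). The 5 others had log2 fold changes of -1.90 to -1.31 and were not past the threshold. The test was edgeR's quasi-likelihood test on total gene reads, scaled by the mapped reads of each library, with a Benjamini-Hochberg adjusted p under 0.05 over the number of genes that the authors' own adjustment covered. Of the 1246 genes tested, 9.31% fell and 19.2% rose by the same rule, so 1 fall and 1 rise among 7 members are close to the shares among all listed genes. Of all listed genes, 24.3% had russeted values wholly below and 63.1% wholly above the waxy ones, and the table holds only genes that the authors had selected for a difference on these same libraries, so the lack of overlap tests nothing. The median log2 fold change was -1.58 over the 7 members and 1.19 over all tested genes, and 26.2% of tested genes were below 0. In bulk tissue, fewer cells of a type and less RNA per cell cannot be told apart.

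**Figure D1:**
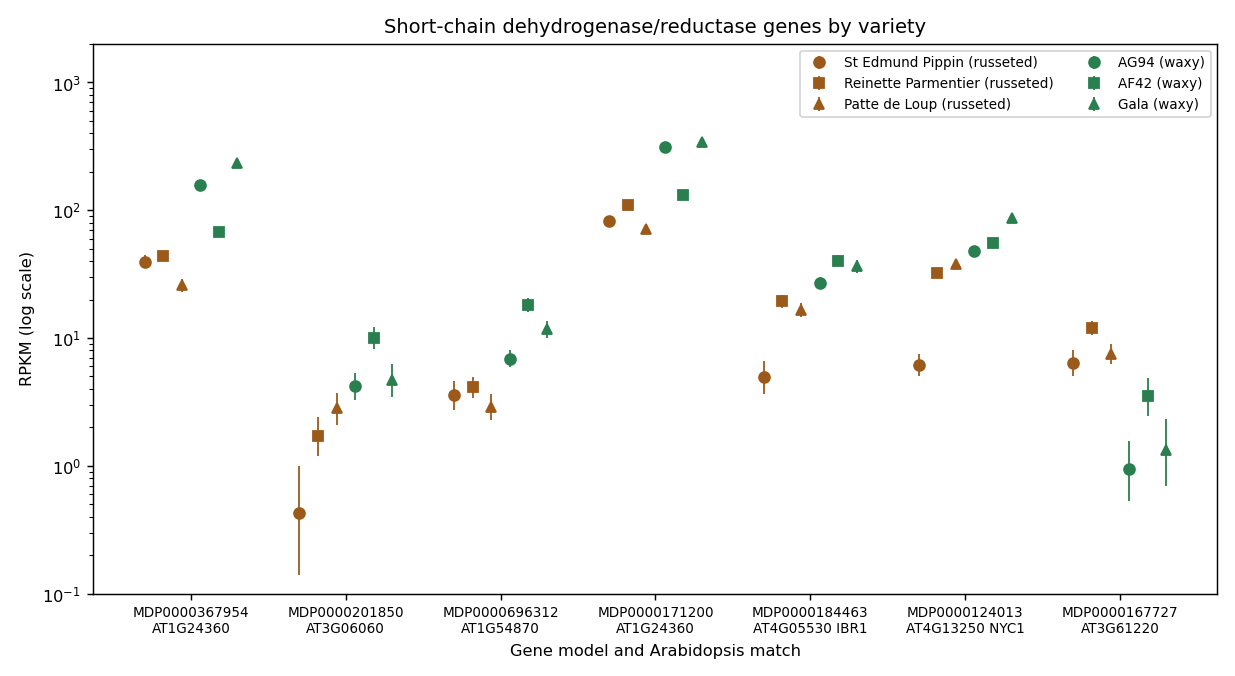
Level of each short-chain dehydrogenase/reductase gene in each variety, in RPKM (a read count per coding length and library depth, log scale); brown symbols are russeted and green symbols waxy varieties, and bars are exact Poisson intervals at 95%, which cover counting error only. In the first 6 genes the brown symbols lie below the green ones, and in MDP0000167727 they lie above, at 6.43 to 12.02 RPKM against 0.94 to 3.52 RPKM.

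The most abundant members were both models matched to AT1G24360, the locus of the plastid beta-ketoacyl-ACP reductase. This enzyme carries out the first reduction in each round of de novo fatty acid synthesis. MDP0000367954, with a coding length of 657 bases, stood at 39.5 RPKM in St Edmund Pippin, 43.9 in Reinette Parmentier and 25.9 in Patte de Loup, and at 158, 67.2 and 233 in AG94, AF42 and Gala. The russeted varieties were close to each other, whereas the waxy ones were spread, with AF42 nearest to the russeted values. The means were 36.5 ± 9.37 RPKM (SD, n = 3) over the russeted and 153 ± 83.1 RPKM over the waxy varieties, a 4.19-fold difference. The log2 fold change was -2.07 ± 0.56 (SE; edgeR, adjusted p = 0.0401), which makes it the only short-chain dehydrogenase/reductase gene that fell by this test.

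The fall of MDP0000367954 was past the threshold with AF42 left out (adjusted p = 0.0193) and not with any other variety left out (adjusted p = 0.0718 without AG94 to 0.17 without Patte de Loup). It was also not past it with limma on log2(RPKM + 0.1) (adjusted p = 0.0725), and over all alternatives the adjusted p ran from 4.99e-07, with DESeq2 and its own size factors, to 0.17.

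The second model of this locus, MDP0000171200 (975 bases), was the more abundant, with 82.5 RPKM in St Edmund Pippin, 110 in Reinette Parmentier and 70.7 in Patte de Loup, and with 315 in AG94, 133 in AF42 and 340 in Gala. It had the same order of varieties within each phenotype as the first model. The means were 87.9 ± 20.4 RPKM (SD, n = 3) over the russeted and 263 ± 113 RPKM over the waxy varieties, and the log2 fold change of -1.58 ± 0.57 was not past the threshold (edgeR, adjusted p = 0.136). The second model stood 1.46 times (Gala) to 2.73 times (Patte de Loup) as high as the first per length. That ratio was 2.09, 2.51 and 2.73 in the russeted varieties and 2.00, 1.97 and 1.46 in the waxy ones. Reads of both models were almost all unique (99.9% or more), so they were counted apart. Their profiles over the 6 varieties, each centred on its own mean of log2(RPKM + 1), differed by a root mean square of 0.28.

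Genes of the same plastid pathway were looked up after the members' values had been seen, from a list of 20 further Arabidopsis loci. The list covers acetyl-CoA carboxylase subunits, acyl carrier proteins, a malonyltransferase, the condensing, dehydrating and second reducing enzymes, and thioesterases. The table held 11 gene models of these loci. Several matched the same locus, among them 3 of ENR1, so they are not 11 separate steps. Unique reads ran from 6.63% in ACP4 (MDP0000752918) to 85.7% in CAC2 (MDP0000157284). By the test, 2 of the 11 fell and 0 rose, with 10 log2 fold changes below 0 and a median of -1.59. With TMM factors, 10 fell. Over all tested genes 9.31% fell with mapped reads and 23.8% with TMM factors, so the larger count came with more falls in the whole table. Since the list was made after values were seen, its count is a description and nothing particular to the pathway follows from it.

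The enoyl-ACP reductase ENR1 performs the second reduction of the same cycle and is structurally a short-chain dehydrogenase/reductase too, but its models carry no PF00106 entry in the table and are not members. It had 3 gene models, each with 33.1% to 38.8% unique reads, so reads were shared among close copies. The most abundant, MDP0000350866, averaged 65.9 ± 33.1 RPKM (SD, n = 3) over the russeted and 198 ± 42.7 RPKM over the waxy varieties (log2 fold change -1.59 ± 0.56, edgeR adjusted p = 0.128). MDP0000234133 fell and averaged 28.6 ± 9.26 RPKM in the waxy against 6.18 ± 3.84 RPKM in the russeted varieties (log2 fold change -2.20 ± 0.55, adjusted p = 0.0256), a call lost without St Edmund Pippin, Patte de Loup or Gala (adjusted p up to 0.125). The third, MDP0000176923, was not past the threshold, at -1.24 ± 0.55 on the log2 scale (adjusted p = 0.266).

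The second fall in the pathway was that of MDP0000164161, matched to AT5G10160, the locus of a hydroxyacyl-ACP dehydratase, which removes water between the reductions. It stood at 13.2, 21.3 and 12.1 RPKM in St Edmund Pippin, Reinette Parmentier and Patte de Loup, and at 147, 23.5 and 138 RPKM in AG94, AF42 and Gala (log2 fold change -2.72 ± 0.63, adjusted p = 0.0181; 48.2% of reads unique), a call lost without any 1 russeted variety (adjusted p up to 0.0979). As in both AT1G24360 models, AF42 was the lowest waxy variety and the closest to the russeted ones. The only model of the pathway with a log2 fold change above 0 was FATB (MDP0000951278), a thioesterase that releases saturated acyl chains, at 90.6 ± 25.8 RPKM over the russeted and 44.6 ± 20.2 RPKM over the waxy varieties (1.02 ± 0.53, adjusted p = 0.403).

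**Figure D2:**
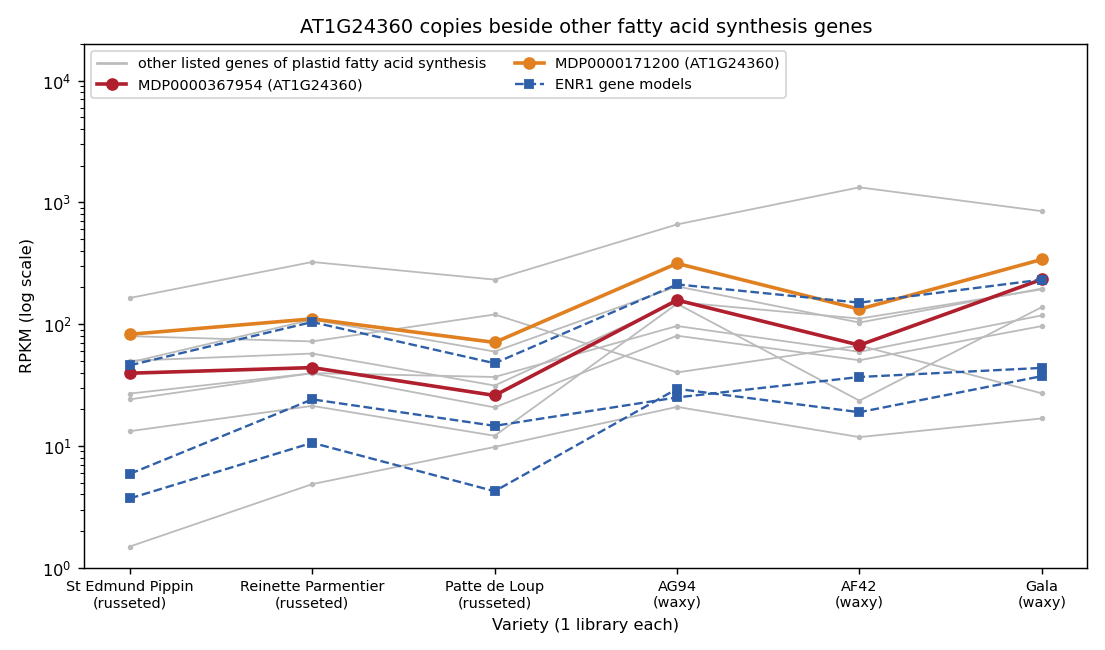
RPKM (log scale) of both AT1G24360 models, the 3 ENR1 models and the other 8 listed models of plastid fatty acid synthesis in each variety; a line joins the 6 libraries of a gene model and implies no order. Both AT1G24360 models were highest in AG94 and Gala and lower in AF42 (133 and 67.2 RPKM), and lowest in Patte de Loup.

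Among the less abundant members, MDP0000201850 matched AT3G06060 and carried the enzyme number of 3-ketodihydrosphinganine reductase. This enzyme reduces the first intermediate of sphingolipid synthesis, the pathway of the sphingoid bases of plant membranes. The gene stood at 0.43 RPKM in St Edmund Pippin, 1.72 in Reinette Parmentier and 2.81 in Patte de Loup, and at 4.21, 10.0 and 4.71 in AG94, AF42 and Gala. The St Edmund Pippin value rests on 5 reads, with a counting interval of 0.139 to 0.995 RPKM. The varieties were spread in both phenotypes, and AF42 was the highest, the reverse of its place in both AT1G24360 models. Russeted exocarp averaged 1.65 ± 1.19 RPKM (SD, n = 3) and waxy 6.32 ± 3.23 RPKM, and the log2 fold change of -1.90 ± 0.64 was not past the threshold (edgeR, adjusted p = 0.107). Of 13 other loci of sphingolipid synthesis, listed after the values were seen, 0 matched a gene model analysed here.

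MDP0000696312, matched to AT1G54870, had the most even russeted values of the 7 genes, 3.56, 4.12 and 2.90 RPKM in St Edmund Pippin, Reinette Parmentier and Patte de Loup. The waxy values were 6.89 RPKM in AG94, 18.2 in AF42 and 11.7 in Gala. This gene thus varied with a coefficient of 17.3% among russeted and 46.2% among waxy varieties. Means of 3.53 ± 0.611 RPKM (SD, n = 3) and 12.3 ± 5.66 RPKM gave a log2 fold change of -1.79 ± 0.52, which was just outside the threshold (edgeR, adjusted p = 0.0573). It was inside it with AG94, the lowest waxy variety, left out (adjusted p = 0.0404). With any other variety left out it was outside (adjusted p = 0.1 without Gala to 0.218 without Patte de Loup).

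IBR1 (MDP0000184463, AT4G05530) acts in peroxisomes in the conversion of the auxin precursor indole-3-butyric acid to active auxin. It stood at 4.98 RPKM in St Edmund Pippin, 19.3 in Reinette Parmentier and 16.7 in Patte de Loup, and at 27.1, 40.4 and 36.6 in AG94, AF42 and Gala. St Edmund Pippin was far below the other russeted varieties, and all 3 were below AG94, the lowest waxy one. The means were 13.7 ± 7.63 RPKM (SD, n = 3) over the russeted and 34.7 ± 6.86 RPKM over the waxy varieties (log2 fold change -1.34 ± 0.53, edgeR adjusted p = 0.19). Without St Edmund Pippin the log2 fold change was -0.94 (adjusted p = 0.463). In the authors' deposited table, IBR1 was the only one of the 6 lower members with a false discovery rate under 0.05 (0.0291), and 10.8% of all genes in that table were lower at that rate. Of 8 other loci of the same conversion, listed after the values were seen, 0 matched a gene model analysed here.

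NYC1 (MDP0000124013, AT4G13250) encodes a chlorophyll b reductase, which starts the breakdown of chlorophyll b when green tissue loses its colour. Its values were 6.19 RPKM in St Edmund Pippin, 32.3 in Reinette Parmentier and 38.3 in Patte de Loup, and 47.7 in AG94, 55.0 in AF42 and 87.4 in Gala. St Edmund Pippin stood apart from the 5 other varieties: Patte de Loup was 6.18 times as high, with a counting interval of 5.07 to 7.60. The phenotypes averaged 25.6 ± 17.1 RPKM (SD, n = 3) and 63.4 ± 21.1 RPKM, and the log2 fold change of -1.31 ± 0.62 was not past the threshold (edgeR, adjusted p = 0.318). Without St Edmund Pippin it was -0.84 (adjusted p = 0.742), and without Gala the adjusted p was 0.811. NYC1 had 109 to 1283 reads per library, so counting error was small beside the spread between varieties. Of 7 other loci of chlorophyll synthesis and breakdown, 0 matched a gene model analysed here.

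The single member that was higher in russeted exocarp was MDP0000167727, matched to AT3G61220, whose Arabidopsis protein, also named SDR1, is known to reduce the monoterpenoid ketone menthone. It stood at 6.43 RPKM in St Edmund Pippin, 12.02 in Reinette Parmentier and 7.49 in Patte de Loup, and at 0.94 in AG94, 3.52 in AF42 and 1.34 in Gala. All russeted values exceeded all waxy ones, and AF42 was again the waxy variety nearest to them. The waxy values rest on 15, 35 and 12 reads, and the counting interval of AF42 (2.45 to 4.90 RPKM) did not reach that of St Edmund Pippin (5.00 to 8.13 RPKM).

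Russeted exocarp averaged 8.65 ± 2.97 RPKM (SD, n = 3) and waxy 1.93 ± 1.39 RPKM of MDP0000167727, a 4.47-fold difference. The log2 fold change of 2.17 ± 0.61 passed the threshold narrowly (edgeR, adjusted p = 0.0489). The rise was not past it with unique reads in place of total reads (adjusted p = 0.0637), nor with any variety but AF42 left out (adjusted p = 0.0232 without AF42, 0.0845 to 0.18 without another). Over all alternatives the adjusted p ran from 0.00134, with DESeq2 and mapped reads, to 0.672, with TMM factors. In the authors' deposited table its false discovery rate was 0.00762, and 25.1% of all genes in that table were higher at a rate under 0.05.

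**Figure D3:**
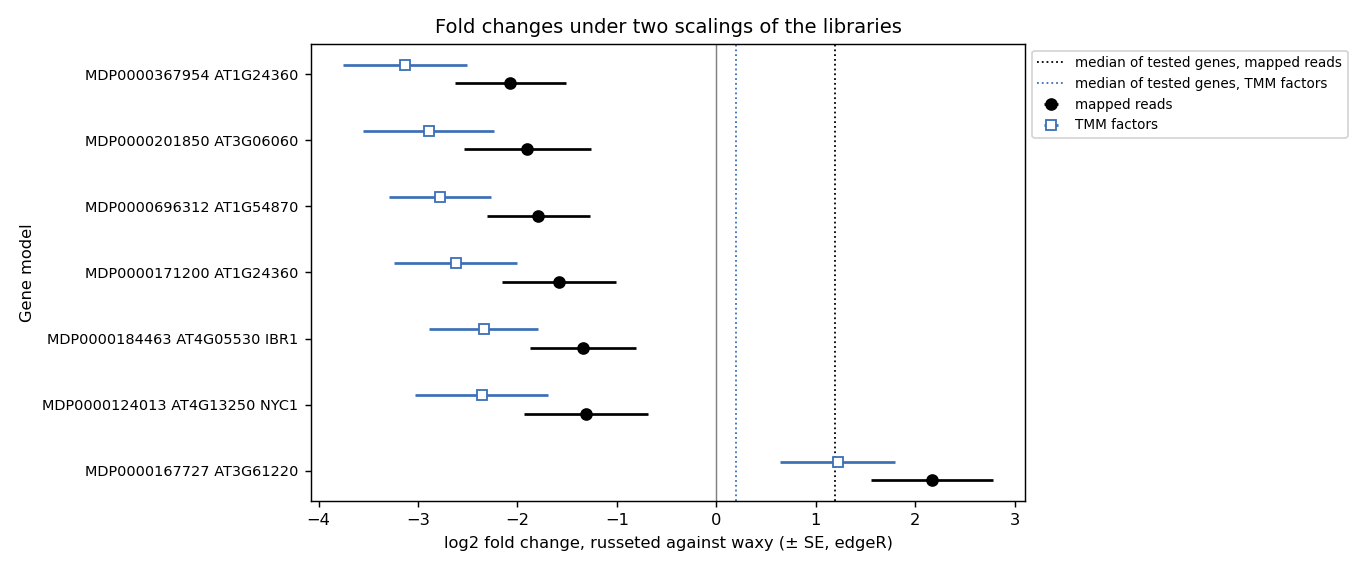
log2 fold change of each gene, russeted against waxy, with its SE (edgeR, 3 varieties per phenotype), scaled by mapped reads (black circles) or by TMM factors (open blue squares); dotted lines are the medians of all tested genes, 1.19 and 0.20. All 7 genes kept their side of 0 under both scalings, with a shift of about 1 unit to the left under TMM.

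How the libraries are scaled shifts these values together. TMM factors assume that most listed genes do not differ, as do the own size factors of DESeq2. That assumption is not met here, since every listed gene had an absolute log2 fold of at least 1 in the authors' test. TMM factors moved the median log2 fold change of all tested genes from 1.19 to 0.20 and that of the members from -1.58 to -2.62. Relative to the median of all tested genes the members hardly moved: the difference from it was -3.26 with mapped reads and -3.32 with TMM factors for MDP0000367954, and 0.98 and 1.02 for MDP0000167727. With TMM factors 5 of the 7 members fell and 0 rose, among tested genes of which 23.8% fell and 3.53% rose. NYC1 (adjusted p = 0.064) and MDP0000167727 (log2 fold change 1.22 ± 0.58, adjusted p = 0.672) were the ones not past the threshold.

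Varieties of a phenotype differed among themselves in ways that were not the same for all members. St Edmund Pippin was the lowest russeted variety in 4 of the 7 genes and Patte de Loup in 3. Among all tested genes with a log2 fold change below 0, St Edmund Pippin was lowest in 52.8% and Patte de Loup in 34.7%. Over all listed genes, of either direction, these shares were 39.4% and 24.6%. Reinette Parmentier was the highest russeted variety in 5 of the 7 genes, in 48.8% of all tested genes below 0 and in 27.3% of all listed genes. The ratio of the highest to the lowest russeted variety ran from 1.42 in MDP0000696312 to 6.59 in MDP0000201850 (counting interval 2.64 to 21.2), with a median of 2.03 over all listed genes. Among waxy varieties AG94 was the lowest in 5 genes and AF42 in the other 2, the AT1G24360 models. Among all tested genes below 0, AG94 was lowest in 35.9% and AF42 in 37.1%, and over all listed genes in 26.9% and 28.4%. The waxy ratio ran from 1.49 in IBR1 to 3.73 in MDP0000167727 (counting interval 1.98 to 7.35), with a median of 2.18 over all listed genes.

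**Figure D4:**
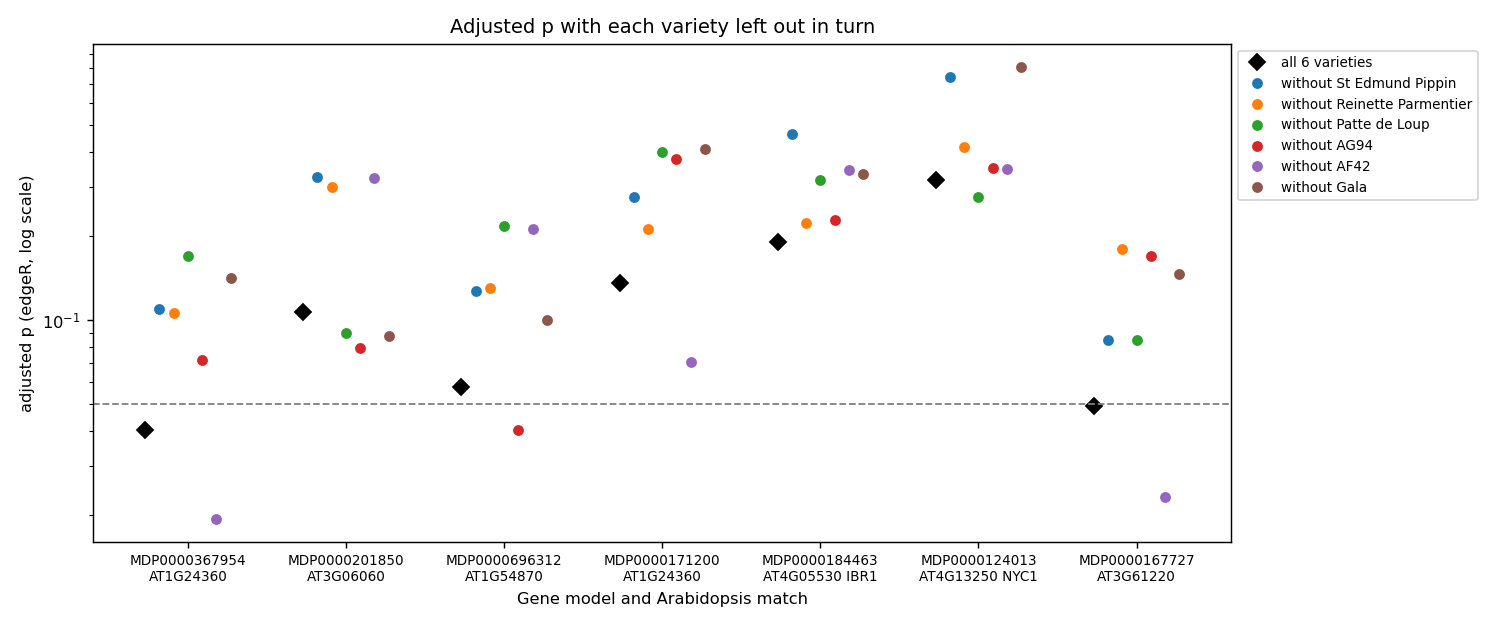
Adjusted p of each gene (edgeR, log scale) with all 6 varieties (black diamonds) and with each variety left out in turn (coloured circles); the dashed line marks 0.05. Circles below the line are those without AF42 for MDP0000367954 (0.0193) and MDP0000167727 (0.0232) and the one without AG94 for MDP0000696312 (0.0404).

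For each member, the 2 described genes with the most similar profile over the 6 varieties were found by the same root mean square difference, which describes likeness over 6 libraries and nothing more. The nearest to MDP0000367954 was CYP707A1 (MDP0000291544), an enzyme that inactivates abscisic acid, at a difference of 0.21, with 13.7 RPKM over the russeted and 45.4 RPKM over the waxy varieties. The next was a phosphoglycerate mutase-like gene (MDP0000211494) at 0.25. Nearest to MDP0000171200 was the plastid lipid transporter gene TGD3 (MDP0000187150) at 0.18, followed by the amino acid transporter gene AAT1 at 0.19. For MDP0000696312 they were the wax alkane gene CER1 (MDP0000461409) at 0.16 and the mevalonate kinase gene MVK at 0.18. At the low level of CER1, 0.157 and 2.66 RPKM, the added 1 compresses its profile.

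IBR1 was nearest to RTE1 (MDP0000315449), a regulator of ethylene receptors, at 0.13, and then to ORG1 at 0.17. NYC1 was nearest to the gene of an excinuclease domain protein (MDP0000265418) at 0.24 and to the purine salvage gene HGPT at 0.27. The sphingolipid gene MDP0000201850 was nearest to a leucine-rich repeat kinase gene (MDP0000148123) at 0.20 and to the purine synthesis gene ASE2 at 0.23. MDP0000167727 was nearest to 2 genes of central carbon metabolism, a lactate/malate dehydrogenase family gene (MDP0000278198) at 0.21 and a pyruvate kinase family gene (MDP0000193389) at 0.23. The added 1 also compresses the profiles of MDP0000167727, at 0.94 to 3.52 RPKM in waxy varieties, and of MDP0000201850, at 0.43 to 2.81 RPKM in russeted ones.

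Other reductase and dehydrogenase families went in both directions, where 9.31% of all tested genes fell and 19.2% rose with mapped reads. Among 9 tested genes of other Rossmann-fold reductase domains, 3 fell and 1 rose. The falls were of 2 NmrA-like genes, MDP0000751143 and MDP0000466251, and of MDP0000119035, matched to AT2G23910, which stood at 20.2 RPKM over the russeted and 262 RPKM over the waxy varieties. The rise was of MDP0000424218, matched to AT5G58490, at 9.12 and 1.45 RPKM. Of 9 genes with medium-chain dehydrogenase domains 3 fell, the cinnamyl alcohol dehydrogenase family genes CAD9 and CAD4 and MDP0000607436, and 0 rose. Of 4 aldo-keto reductase genes 1 rose (MDP0000211180, 43.5 RPKM over the russeted and 9.48 RPKM over the waxy varieties), and of 3 aldehyde dehydrogenase genes 1 rose, REF1 (MDP0000212975, 12.6 and 1.86 RPKM). The first 3 falls held with any 1 variety left out. The calls of MDP0000424218 and REF1 were each lost with 4 varieties, those of CAD4, MDP0000607436 and MDP0000211180 with 3 and that of CAD9 with 1, St Edmund Pippin, left out in turn (adjusted p up to 0.205). The values of REF1 and MDP0000607436 are the most uncertain, since 14.9% and 17.7% of their reads were unique to the gene model. That share was 65% in MDP0000424218 and 69.2% in MDP0000466251. With TMM factors 0 genes of these 4 families rose, and 5, 3, 1 and 0 fell, where 3.53% of all tested genes rose and 23.8% fell.

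Fatty acid elongation follows plastid synthesis in the endoplasmic reticulum and has its own short-chain dehydrogenase/reductase step, KCR1, which was not analysed here. Of 7 tested genes of the other elongation steps, 5 fell and 0 rose, with a median log2 fold change of -1.97. KCS10 fell in both models, MDP0000235280 (2.17 RPKM over the russeted and 117 RPKM over the waxy varieties) and MDP0000134273 (13.6 and 278 RPKM), as did KCS6 (MDP0000392495, 8.29 and 198 RPKM). Of 4 genes of abscisic acid synthesis or breakdown or carotenoid cleavage, 2 fell, CCD4 (MDP0000555220) and CYP707A3 (MDP0000297584), and 0 rose. Of these named calls only that of CYP707A3 was lost with a variety left out, each of the russeted ones (adjusted p up to 0.0641). Of the other 2 elongation calls, that of PAS2 (MDP0000337353) was lost with any variety left out (edgeR, adjusted p up to 0.132). That of ECR (MDP0000062802) was lost with any variety but Gala left out (adjusted p up to 0.114). With TMM factors 3 of the 4 abscisic acid or carotenoid genes and all 7 elongation genes fell. Of all tested genes 23.8% fell under that scaling and 9.31% with mapped reads. Unique reads made up 72.5% in MDP0000134273, 67.9% in CYP707A3, 39.6% in PAS2 and 33.8% in ECR.

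The listed markers of skin tissues differed between the phenotypes, but the authors had selected every listed gene for a difference on these same libraries. A marker without a difference could not appear. Over all tested genes 9.31% fell and 19.2% rose with mapped reads, and marker calls were not counted with TMM factors. The epidermis loci include those of KCS6 and KCS10, whose falls are given above. Of 10 marker loci of cuticle-bearing epidermis, 6 were among the listed genes in 8 models, of which 7 fell, and their summed level was 88.9 to 362 RPKM in russeted and 1365 to 2433 RPKM in waxy varieties. Of 12 cork loci 7 were listed in 10 models, all of which rose, with sums of 134 to 644 RPKM in russeted and 20.5 to 74.9 RPKM in waxy varieties. Of 5 phloem loci 2 were listed, both rose, and they summed to 75.2 to 136 RPKM against 12 to 14.8 RPKM. None of these values was 0, and the 4 loci of green tissue were not analysed here. The part of these tissues in the values of the 7 genes was not tested. The listed genes took 4.71% to 5.26% of the mapped reads in russeted and 7.09% to 9.73% in waxy libraries, of 9.44 M to 19.1 M mapped reads per library.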

How the data were processed

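Poly(A) RNA libraries of 6 apple varieties were analysed. Per the file headers, CLC Genomics Workbench 6.5 produced the single table of gene models that the authors supplied. An aligner or genome build is not given in the sources used here. Listed are read counts per gene (total and unique) as deposited, and RPKM values, which the authors scaled by gene length and mapped reads; all 1261 lengths are multiples of 3, so these are coding lengths. The authors' Baggerley test is deposited as a signed fold (a score), its log2, a p-value and a false discovery rate; the largest rate was 0.2 and the smallest absolute log2 fold 1, so the table holds selected genes, and other genes were not analysed here. Since 0 identifiers were found in the available RefSeq gene table, neither coordinates nor sequences are printed.

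Mapped reads were recovered from reads, length and RPKM over genes with at least 200 reads. Total counts were tested with edgeR 4.0.16 (R 4.3.3, quasi-likelihood, two-sided, mapped reads as library sizes, low-count filter, 1246 genes; all 7 members passed the filter). Benjamini-Hochberg adjustment took 6449 genes as its total, the number behind the authors' rates, with unlisted genes taken to have larger p. The fit was checked on simulated data. There most genes did not differ and adjustment ran over the tested genes only, unlike in the main test here. SE is the log2 fold change over the square root of F. The common biological coefficient of variation was 0.481. An exact permutation test of 3 against 3 cannot go below p = 0.10 and was not used. Alternatives were TMM, DESeq2 1.42.0, limma 3.58.1 on log2(RPKM + 1 or + 0.1), unique reads, no filter, adjustment over tested genes, a replicate block and leaving out each variety. Intervals cover counting error only, since they are exact limits computed from read counts alone. PCR reads carried no molecular identifiers, so copies of a molecule were not told apart. Named genes are all members, the 2 most similar profiles of each, and up to 3 called genes per direction with the smallest p in each list; further genes were named after their values were seen. Members and lists were chosen with earlier results of these data known.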

Additional observations from a re-analysis of the deposited data

How the results depend on the processing

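Over 16 alternatives, 0 of 112 fold changes of the 7 genes changed direction; 79 kept their side of the threshold, 15 lost and 18 gained a call. With all varieties and mapped reads, 239 listed genes rose and 116 fell, and 1 member rose and 1 fell. TMM factors gave 44 and 296 listed genes, and 0 and 5 members. DESeq2 with its own size factors gave 111 and 322, and 0 and 6 members, and with mapped reads 547 and 266, and 1 and 5 members. Adjusting over the tested genes only gave 597 and 290, and 1 and 5 members. Unique reads gave 187 and 104, and 0 and 1 members, and limma on log2(RPKM + 0.1) 195 and 114, and 1 and 0 members. Leaving out 1 variety gave 134 to 194 rises and 67 to 105 falls of listed genes, and 0 to 1 rises and 0 to 1 falls of members; each such fit had fewer libraries. With the extract number as a replicate block 209 listed genes rose and 110 fell, and 1 member rose and 0 fell. The numbers mark different varieties, and same-numbered libraries did not deviate together (r = -0.088, -0.0206 and -0.0946 across genes), so they do not pair the samples. A minimum mean of 1 RPKM removed 0 genes, so that alternative only repeats limma on log2(RPKM + 1). Depth limits MDP0000201850 in St Edmund Pippin (5 reads) and MDP0000167727 in waxy varieties (12 to 35 reads).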

Other observations

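Gene models matched to the NmrA-like locus AT1G75280 did not all go the same way. MDP0000751143 and MDP0000466251, which fell, averaged 1.95 and 5.85 RPKM in russeted and 238 and 209 RPKM in waxy exocarp. The model MDP0000371499, of the same locus and named after its values were seen, stood at 399, 299 and 543 RPKM in St Edmund Pippin, Reinette Parmentier and Patte de Loup and at 141, 145 and 29.1 RPKM in AG94, AF42 and Gala, and was not past the threshold (edgeR, adjusted p = 0.112).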
